A study of Vitis vinifera with 60 samples.

Results

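Refosco, a red-berried grapevine cultivar, was compared with Sangiovese, Barbera, Negroamaro and Primitivo by RNA sequencing of the berry pericarp, the entire berry without its seeds. It holds 12 of the 60 libraries of the series, 3 biological replicates at each of 4 stages, and the other 4 cultivars hold 48. Its members were chosen by the cultivar label and by the matching column names, which gave 4 of the 20 columns of the deposited table, and no measured value entered the choice. The stages were pea-sized berries, berries starting to touch in the bunch, softened berries and berries ripe for harvest. All 5 cultivars grew in the same experimental vineyard at Conegliano, in the Veneto region of Italy, in the 2011 season, and no group carried a treatment. The labels do not say which of the grapes that share the name Refosco was grown, nor how many vines or bunches a replicate holds.

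Grape berries first grow hard and green, then soften, gain sugar and, in red cultivars, form anthocyanin pigments in the skin, and ripen until harvest. Vines of a cultivar are propagated by cuttings and so share a genotype apart from mutations that arise on the vine. A difference that a cultivar keeps at every stage can therefore be read apart from a difference that appears at a single point of ripening, and both kinds were sought in Refosco.

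Each value is the authors' mean FPKM, fragments per unit of transcript length and of library size, over the replicates of a cultivar and stage. The spread between replicate berries and the read depth are unknown, so no counting interval is given. Differences are means of log2(FPKM + 1) in Refosco minus the mean of the other 4 cultivars, and this scale understates the change of low genes. The 4 stages served as repeats for the tests over all stages, so p-values measure how steady a difference was from stage to stage in these vines and this season, and not the variation between replicate vines. Genes are given by locus tag, because 0 tags could be matched to a gene name in the reference. The first field of a tag after VIT_ is called its chromosome field, 0 being sequence not placed on a chromosome, and the next its scaffold field. The tissue label was not checked against marker genes for the same reason.

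Before Refosco was compared, every column was set against the mean of each cultivar at the other 3 stages, as deviations from the stage mean over the 18207 genes that averaged 1 FPKM or more. All 4 Refosco columns matched Refosco best, with Pearson r across genes of 0.50 in pea-sized, 0.54 in touching, 0.52 in soft and 0.37 in harvested berries. Their r with any other cultivar was at most 0.04. Of the columns Refosco was compared with, 3 went against their labels or stood apart. The harvest column labelled Negroamaro matched Primitivo at 0.45 and Negroamaro at -0.10, and the harvest column labelled Primitivo matched Negroamaro at 0.44 and Primitivo at -0.09. Barbera in pea-sized berries matched Barbera at 0.13 and Refosco at 0.14. These r values are across genes that share a library, and genes are not independent replicates. In the Refosco touching column 2 genes of at least 100 FPKM in every other column were listed at 0, which happened in 0 of the other 19 columns. Counts without these columns are given beside the results they move.

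**Figure D1:**
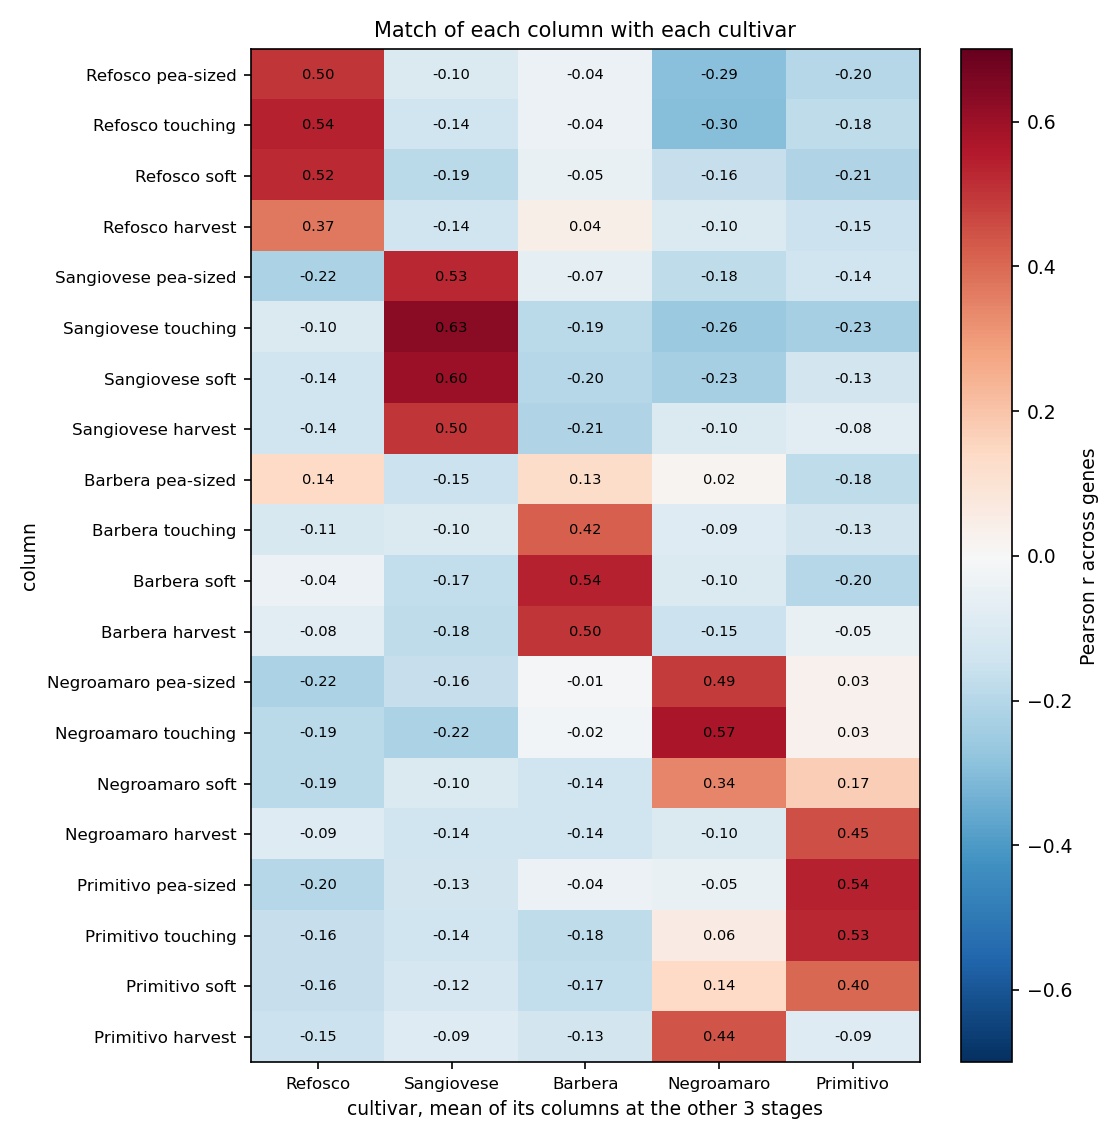
Pearson r across 18207 genes between each of the 20 columns (rows) and the mean of each cultivar at the other 3 stages (columns), as deviations from the stage mean. The 4 Refosco columns have their highest r with Refosco, from 0.37 to 0.54, while the harvest columns labelled Negroamaro and Primitivo match each other's cultivar at 0.45 and 0.44.

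Over the 4 stages 375 of the 18207 genes tested stood apart in Refosco, 2.06% of them, with 160 higher (0.879%) and 215 lower (1.18%) than in the other cultivars. A gene was called at a Benjamini-Hochberg adjusted p under 0.05 in limma and a log2 difference of at least 1 either way. At the adjusted p alone 1531 genes passed (8.41%). By comparison the median difference over all tested genes was -0.05. As the call asks for a steady difference, nearly all called genes kept their side: 152 of the 160 were above the mean of the others at all 4 stages, and 212 of the 215 were below it. Of all tested genes 10.8% were above and 22% below in this way. Refosco lay outside the range of the 4 others at every stage for 69 of the higher and 111 of the lower genes, where 1.15% of all tested genes were above and 3.09% below the others in this way. No value of any other cultivar at any stage reached the Refosco range for 21 of the higher and 33 of the lower genes, against 0.181% and 0.291% of all tested genes. Since whole berries were used, fewer cells of a type and less RNA per cell cannot be told apart.

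The typical difference was of like size both ways, 1.43 for the median higher gene and -1.43 for the median lower gene. A log2 difference of 3 or more was found for 12 higher and 5 lower genes, and one of 2 or more for 40 and 39. In the higher of the groups 13 higher and 17 lower genes reached 100 FPKM, 8% of the called genes, against 9.01% of all tested genes. The count of 375 rested on the stages used: it was 142 without touching berries and 138 without soft berries. With the other 4 cultivars treated as 1 level, which adds their differences to the error, it was 209. Without the Refosco touching column alone 106 genes were higher and 172 lower. Without the touching column, the Barbera pea-sized column and both harvest columns labelled Negroamaro and Primitivo, 203 were higher and 295 lower.

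The same contrast called more genes in Sangiovese than in Refosco. There 247 genes were higher and 217 lower, against 119 and 148 in Barbera, 60 and 62 in Negroamaro and 54 and 58 in Primitivo. These contrasts share all 20 columns, and whether the counts differ was not tested. All columns entered as labelled. The counts of Negroamaro and Primitivo thus include harvest columns that matched each other's cultivar, and that of Barbera its doubted pea-sized column. Counts of these cultivars with the columns exchanged or left out were not taken, so they cannot be ranked against Refosco. Taken over all tested genes without a test, Refosco was above every other cultivar at all 4 stages for 209 genes and below every other for 563. The excess on the lower side was smaller after other scalings of the columns, 293 above and 423 below after quantile normalization and 261 and 451 after upper-quartile scaling.

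The smallest p belonged to VIT_12s0028g03230, on chromosome field 12, which was on in Refosco alone. Its level in Refosco was 24.9 FPKM in pea-sized, 36.0 in touching, 29.9 in soft and 21.3 in harvested berries. In the other 16 columns it lay between 0.0255 and 0.191 FPKM. It therefore passed the filter of 1 FPKM on the mean of all columns only through Refosco, so its small p is not separate support. The groups were thus far apart at every stage, and the log2 difference was 4.68 (SE 0.10, limma adjusted p = 1.4e-12), higher in 4 of 4 stages. It was the only gene at 5 FPKM or more in all 4 Refosco columns and under 1 FPKM in all 16 others. In the opposite direction, off in Refosco and at 5 FPKM or more in all others, there were 0 genes. Across the stages or cultivars left out in turn the log2 difference of VIT_12s0028g03230 ran from 4.57 to 4.79.

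By size, VIT_00s0160g00280 was furthest above the other cultivars. It stood at 333 FPKM in pea-sized Refosco berries, 137 in touching, 67.9 in soft and 14.1 in harvested berries. It was listed at 0 in 13 of the other 16 columns, and at 266 FPKM in pea-sized Barbera and at 3.87 and 3.60 FPKM in the pea-sized and harvest columns labelled Negroamaro. The log2 difference over the stages was 5.59 (SE 0.96, limma adjusted p = 0.00335), higher in 4 of 4 stages. Next came the entry that joins VIT_19s0014g05360 and VIT_19s0014g05370, with 126 FPKM in pea-sized, 188 in touching, 73.9 in soft and 72.8 in harvested Refosco berries. Outside Refosco it was at 114 FPKM in pea-sized Barbera, at 8.48 FPKM in the harvest column labelled Negroamaro and at 4.69 to 6.87 FPKM in Primitivo before harvest, and under 1 FPKM elsewhere. Its log2 difference was 5.44 (SE 0.91, limma adjusted p = 0.00295). The single column that came near Refosco for both was thus pea-sized Barbera, which matched Refosco about as well as Barbera. Both calls were lost without touching berries (adjusted p = 0.0721 and 0.0642 in limma) and without soft berries (0.0654 and 0.0581).

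Furthest below the other cultivars was VIT_11s0052g01770, on chromosome field 11. Refosco had 1.22 FPKM in pea-sized, 30.2 in touching, 0.537 in soft and 0.281 in harvested berries. The other 16 columns lay between 127 and 502 FPKM, so the groups did not overlap at any stage. The log2 difference over the stages was -5.94 (SE 0.60, limma adjusted p = 4.5e-05), and at harvest alone it was -7.75 (SE 0.54, adjusted p = 4.02e-05). The second, VIT_01s0026g00430 on chromosome field 1, had 0.186, 3.26, 0.359 and 0.221 FPKM in Refosco from pea-sized to harvested berries, against 10.2 to 59.9 FPKM in the other columns. Its log2 difference was -3.81 (SE 0.30, limma adjusted p = 6.95e-06). In both genes the touching column was the highest of the 4 Refosco columns. Their Refosco difference changed between stages (F test over the stage terms in limma, adjusted p = 0.0387 and 0.0474), and the part of the touching column in this, where 2 abundant genes are listed at 0, was not tested.

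**Figure D2:**
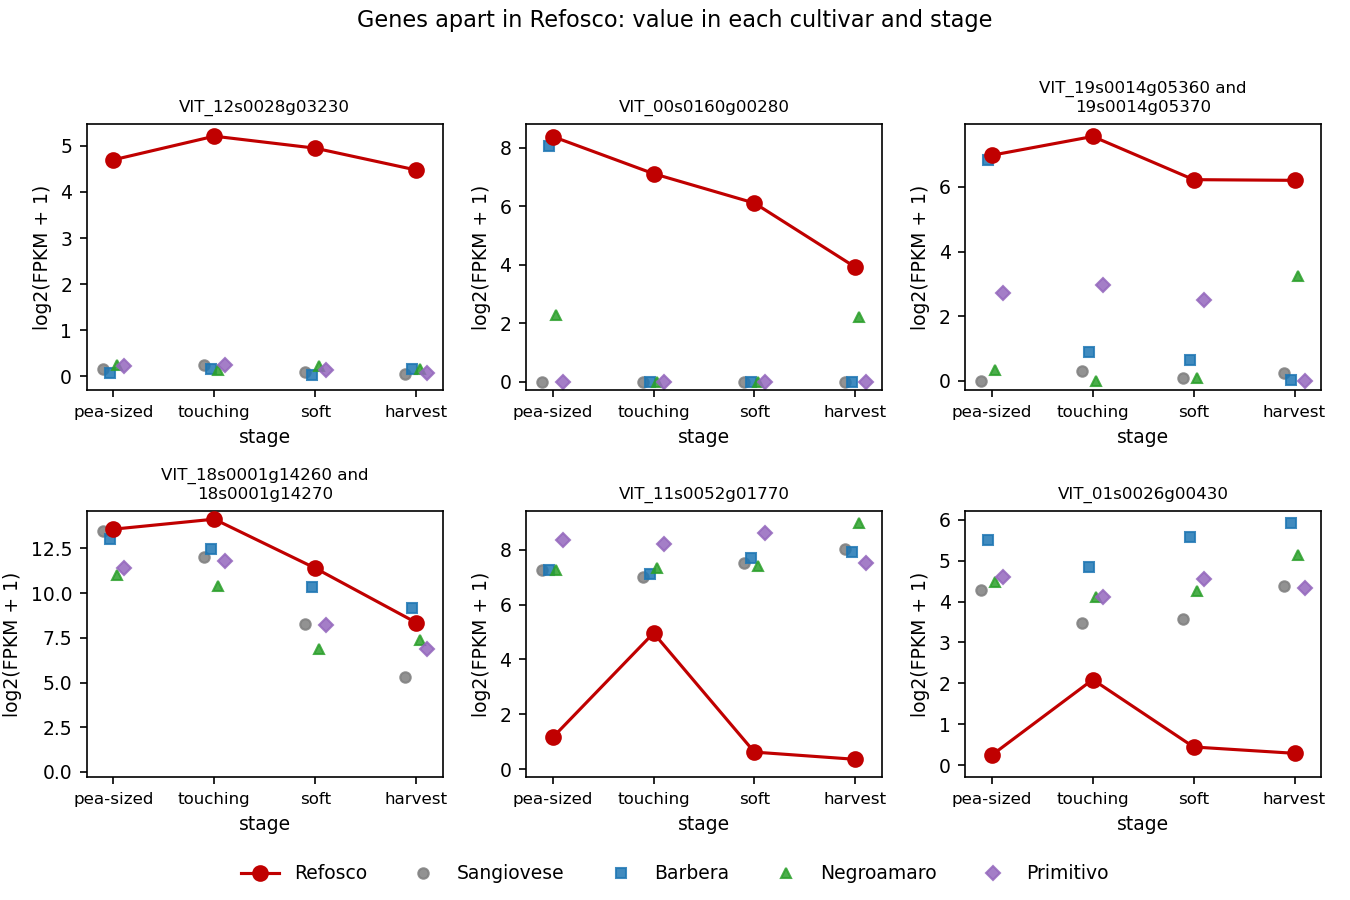
Deposited mean FPKM on a log2(FPKM + 1) scale at the 4 stages, for 4 entries higher and 2 genes lower in Refosco (red line) than in the other cultivars (points). VIT_12s0028g03230 stands at 21.3 FPKM or more in every Refosco column and at most 0.191 FPKM elsewhere, and VIT_11s0052g01770 at 30.2 FPKM or less against at least 127 FPKM.

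Among the called entries the most abundant joined VIT_18s0001g14260 and VIT_18s0001g14270. It reached 12250 FPKM in pea-sized, 18060 in touching, 2705 in soft and 327 in harvested Refosco berries. Refosco was above all 4 others at the first 3 stages, where these ran up to 11630, 5604 and 1286 FPKM, and at harvest Barbera was higher, at 584.5 FPKM. The log2 difference of this entry was 1.99 (SE 0.49, limma adjusted p = 0.0244), higher in 4 of 4 stages against the mean of the others. Of the 6 entries named over the stages it was called under the fewest alternatives: adjusted p was 0.2 without soft berries, 0.163 without touching berries and 0.0886 without the Refosco touching column alone. It was 0.0638 without Negroamaro, 0.0718 without Primitivo, 0.0632 after quantile normalization and 0.0942 with the other cultivars treated as 1 level. Joined entries can hold near-identical copies between which the authors' estimate divides reads. Of the called entries 14 higher and 13 lower ones join several tags.

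To see whether the differences held in berries not used to call them, each stage was left out of the fit in turn. Of the 58 genes called higher without touching berries, 47 were also higher by at least 1 on the log2 scale in touching berries, 81.0% of them against 3.11% of all tested genes. Without soft berries it was 52 of 64 (81.2%, against 3.03%), and without pea-sized berries 69 of 122 (56.6%, against 2.66%). For the higher genes the share was lowest at harvest, with 81 of 197 (41.1%, against 6.2%). For genes called lower it was lowest in pea-sized berries, with 90 of 182 (49.5%, against 2.2%). The other counts were 62 of 84 in touching (73.8%, against 2.91%) and 53 of 74 in soft berries (71.6%, against 6.1%). At harvest it was 153 of 218 (70.2%, against 6.99%). The lists differ in length with the stage left out, so their shares are not like for like. The stage left out shares cultivars and vineyard with the others, so this describes steadiness over ripening and not replication in other vines.

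**Figure D3:**
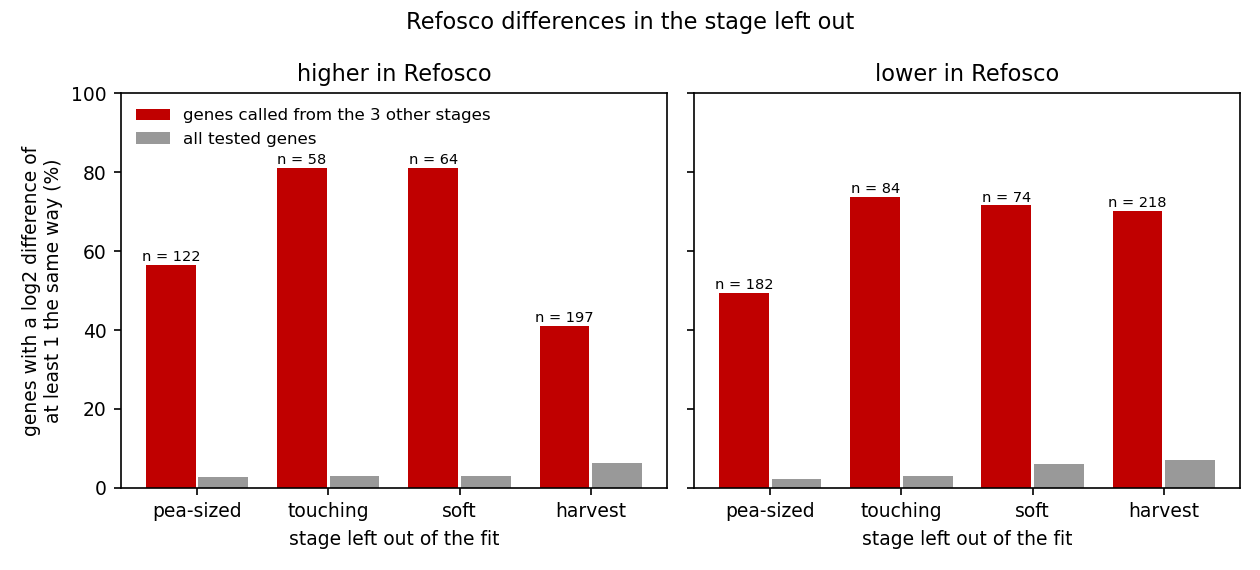
Share of genes with a log2 difference of at least 1 in the stage left out, for genes called higher (left) or lower (right) in Refosco from the other 3 stages (red, with their number) and for all tested genes (grey). Shares of called genes ran from 41.1% to 81.2%, and those of all tested genes from 2.20% to 6.99%.

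Some of the genes apart in Refosco were neighbours. Counting stretches of at least 3 genes that followed each other by tag number among those tested and were called in the same direction, 29 genes lay in 8 runs, 3 of them higher and 5 lower. With 2 or more genes a run, there were 77 genes in 32 runs. Neighbours may be near-identical copies that share reads, so a run's summed level is firmer than its number of genes.

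The longest run held 7 entries from VIT_00s0160g00020 to VIT_00s0160g00160, on unplaced sequence with scaffold field 160. Their summed level in Refosco was 369, 390, 301 and 298 FPKM from pea-sized to harvested berries. In the other cultivars it was 44.3 to 238.5 FPKM in pea-sized, 43.8 to 201 in touching, 41.1 to 143 in soft and 27.9 to 146.5 FPKM in harvested berries, below Refosco at every stage. The 7 differences ran from 1.00 to 3.30, with a median of 2.01. Within the run VIT_00s0160g00100 was the most apart, with 44.9, 61.7, 44.8 and 52.0 FPKM in Refosco against at most 15.4 FPKM in any other column (log2 difference 3.30, SE 0.19, limma adjusted p = 2.74e-07). VIT_00s0160g00130 was similar, with 25.7 to 40.9 FPKM in Refosco against at most 14.9 FPKM elsewhere (2.41, SE 0.19, adjusted p = 6.59e-06). The joined entry of VIT_00s0160g00110 and VIT_00s0160g00120, the most abundant of the run, overlapped with Negroamaro: it was at 143 to 199 FPKM in Refosco and at 188 FPKM in pea-sized Negroamaro. Pea-sized Barbera was above pea-sized Refosco for VIT_00s0160g00020 (65.3 against 56.1 FPKM), VIT_00s0160g00090 (10.1 against 8.39) and VIT_00s0160g00160 (35.9 against 33.4). Of the 15 tested genes with scaffold field 160, 9 were higher and 0 lower in Refosco, against 0.879% and 1.18% of all tested genes. Without Sangiovese the median of the run was 1.41.

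The other neighbours of that scaffold did not all differ in the same direction. VIT_00s0160g00330 was higher, at 24.5, 15.6, 6.996 and 5.25 FPKM in Refosco against 4.55 FPKM or less elsewhere (log2 difference 2.43, limma adjusted p = 1.63e-06). VIT_00s0160g00360 was at 0.181 to 0.398 FPKM in Refosco and at 0.0898 to 0.478 FPKM in Barbera after the pea-sized stage. As labelled, Primitivo had 0.166 to 0.960 FPKM and Negroamaro 0.151 to 1.61 FPKM. Sangiovese had 2.50 to 16.8 FPKM and pea-sized Barbera 24.4 FPKM, and the gene was not called (adjusted p = 0.154). VIT_00s0160g00220 had about the same level in Refosco, 3.46 to 6.06 FPKM, as elsewhere, 2.47 to 7.54 FPKM (log2 difference 0.02, adjusted p = 0.942).

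On chromosome field 19, 4 adjacent entries from VIT_19s0014g05330 to VIT_19s0014g05400 were higher, the joined entry named above among them. Their sum in Refosco was 221, 332.5, 137 and 117 FPKM over the stages. Elsewhere the sum was at most 8.84 FPKM in 15 columns and 209 FPKM in pea-sized Barbera. VIT_19s0014g05380 was at 69.6, 107, 46.8 and 33.5 FPKM in Refosco, 70.9 FPKM in pea-sized Barbera and at most 1.76 FPKM in the other 15 columns (log2 difference 5.09, SE 0.69, limma adjusted p = 0.000675). The third run, on chromosome field 13 from VIT_13s0067g01080 to VIT_13s0067g01100, summed to 90.7, 102, 48.9 and 27.3 FPKM in Refosco. The others ran from 2.96 to 36.0 FPKM over all stages, below Refosco at each stage.

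All 5 lower runs held 3 genes. The genes from VIT_12s0035g00730 to VIT_12s0035g00750 were the most abundant of them, and their sum in Refosco was 15.3, 21.9, 12.6 and 3.66 FPKM from pea-sized to harvested berries. The others had 48.8 to 247.5 FPKM apart from pea-sized Barbera, which was at 12.0 FPKM and below Refosco. The run from VIT_01s0011g05900 to VIT_01s0011g05920 was nearly silent in Refosco, at most 0.104 FPKM. Its sum went from 10.6 to 64.4 FPKM in Negroamaro and from 15.2 to 103 FPKM in Primitivo between pea-sized and soft berries, and was 205 and 151 FPKM in the harvest columns with these labels. Barbera was next lowest at every stage, with 0.267 FPKM when pea-sized and 3.00 FPKM at harvest, and Sangiovese went from 1.93 to 30.9 FPKM. Refosco was lowest at each stage, but the other 4 cultivars differed widely among themselves.

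Of the remaining lower runs, that from VIT_18s0041g01650 to the entry joining VIT_18s0041g01690 and VIT_18s0041g01700 was at 0.268 to 2.16 FPKM in Refosco. Negroamaro was next lowest before harvest, at 3.59 to 5.36 FPKM. At harvest the column labelled Primitivo was, at 2.90 FPKM, lower than that labelled Negroamaro, at 30.0 FPKM. The run from VIT_00s0540g00010 to VIT_00s0540g00040 was at 0.0536 to 1.34 FPKM in Refosco and 1.56 to 21.2 FPKM elsewhere. Here Primitivo came next before harvest, at 1.56 to 2.00 FPKM, and at harvest the column labelled Negroamaro did, at 2.26 FPKM. In the last, from VIT_12s0034g02310 to VIT_12s0034g02350, Refosco was at 0.361 to 1.39 FPKM and the others at 3.12 to 15.0 FPKM apart from 0.587 FPKM in pea-sized Barbera. In 4 of the 5 lower runs the touching column had the highest of the 4 Refosco sums.

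**Figure D4:**
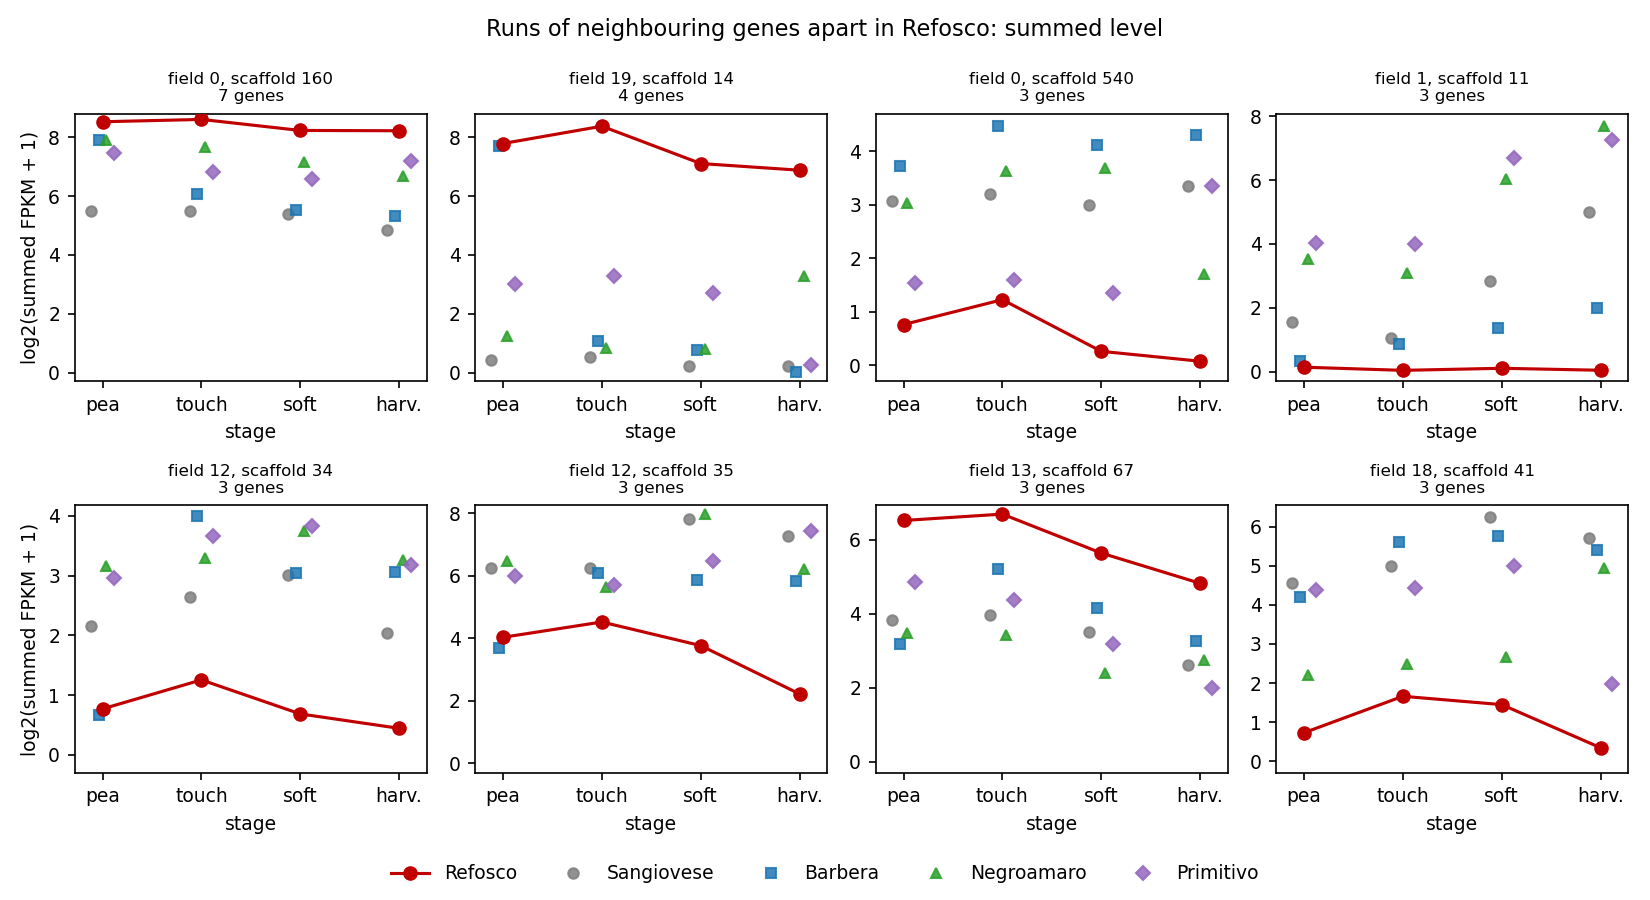
Summed deposited FPKM of each of the 8 runs, as log2(sum + 1), at the 4 stages in Refosco (red line) and the other cultivars (points), titled by chromosome field and scaffold field. Pea-sized Barbera lies at the Refosco level in the runs of scaffold field 14 (209 against 221 FPKM) and scaffold field 35 (12.0 against 15.3 FPKM).

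Pea-sized Barbera was near Refosco beyond these runs. The genes apart in Refosco were called again without Barbera, which gave 423, and Barbera was then placed by whether it lay nearer to Refosco or to the mean of the other 3. In pea-sized berries it was nearer to Refosco for 236 of the 423 (55.8%). In Barbera at the other stages the share was 33.1% to 38.5%, and in each column of the other 3 cultivars, treated in the same way, it was 17.8% to 39.0%. The share in pea-sized Barbera was alike for genes higher (56.0% of 182) and lower (55.6% of 241) in Refosco. Without this column 436 genes stood apart over the stages, 356 of them among the 375.

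Genes apart in Refosco were spread over all chromosome fields, at 0.559% to 4.22% of the genes tested. The highest share was in unplaced sequence (34 higher and 25 lower of 1398), followed by chromosome field 16 (10 and 15 of 701) and chromosome field 19 (10 and 13 of 762). Chromosome field 2 had the lowest, with 1 higher and 3 lower of 716. The share was lower among more abundant genes, from 3.25% of genes with a mean of 1 to 5 FPKM to 1.29% of those at 100 FPKM or more. On the higher side 74 of the 160 genes were in the lowest class and 5 in the highest. These shares were not tested, and noise and log scale differ with abundance.

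Harvest was the stage at which most genes were called apart in Refosco. By size alone the stages lay closer. At harvest 6.2% of all tested genes were higher and 6.99% lower by at least 1 on the log2 scale. These shares were 3.03% and 6.1% in soft, 3.11% and 2.91% in touching and 2.66% and 2.2% in pea-sized berries. Testing each stage by itself, 888 genes (4.88% of those tested) were called at harvest, 500 higher (2.75%) and 388 lower (2.13%). In soft berries 109 genes were called (0.599%), 43 higher (0.236%) and 66 lower (0.362%). This split turned with the scaling of the columns, to 59 higher and 50 lower after upper-quartile scaling and 48 and 31 after quantile normalization, which moved the median gene of soft berries from -0.09 to 0.02. In touching berries it was 35 (0.192%), 26 higher (0.143%) and 9 lower (0.0494%). In pea-sized berries it was 41 (0.225%), 29 higher (0.159%) and 12 lower (0.0659%). The balance of directions also depended on the pseudocount: at harvest it was 518 higher and 755 lower with 0.1 FPKM and 460 and 127 with 5 FPKM, and in soft berries 40 and 98, and 35 and 17. In pea-sized and touching berries 0.1 FPKM gave 10 higher and 13 lower, and 12 and 12. Each stage has a single Refosco column, which was assumed to vary as the other cultivars do around their own courses. The model also gives each gene a single spread for all stages, so a stage where cultivars lie further apart can yield more calls. The same counts by stage were not taken for the other cultivars. Whether the excess at harvest is particular to Refosco was therefore not tested. Of the genes called at harvest 475 higher and 346 lower ones were called at no other stage. As the other stages called only 109, 35 and 41 genes, this count is set largely by the lengths of the lists.

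The early stages' counts depended on the columns that went against their labels. With both such harvest columns exchanged, 93 genes were apart in pea-sized, 84 in touching, 215 in soft and 1109 in harvested berries. Without pea-sized Barbera the counts were 88, 94, 188 and 995. Without 4 columns, the 3 above and Refosco touching, they were 189 in pea-sized, 485 in soft and 1528 in harvested berries. Harvest had the most genes apart under each of these. Fewer were called at harvest without Sangiovese, 368, without Primitivo, 448, and without touching berries, 510.

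**Figure D5:**
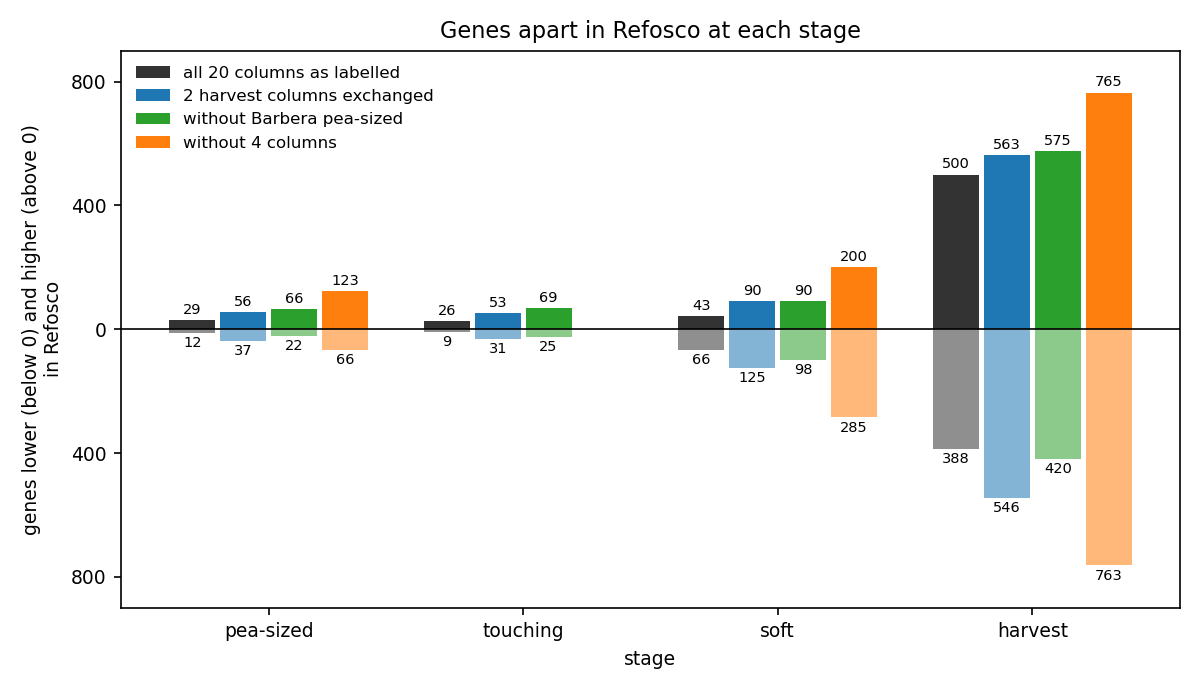
Number of genes called higher (upward) and lower (downward) in Refosco at each stage, with all 20 columns as labelled, with Negroamaro and Primitivo exchanged at harvest, without pea-sized Barbera, and without these 3 and the Refosco touching column (which leaves no value for touching berries). Harvest has 500 higher and 388 lower genes as labelled and the most under each alternative drawn.

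Most genes higher in Refosco at harvest had not been apart there in softened berries. There 50 of the 500 were higher by at least 1 on the log2 scale, where 3.03% of all tested genes were. For these 500 genes, chosen by their harvest values, the median level in Refosco was 10.4 FPKM in pea-sized, 8.53 in touching, 3.25 in soft and 47.8 in harvested berries. At harvest the medians of the others were 5.11 FPKM in Sangiovese, 7.68 in Barbera, and 12.6 and 5.82 in the columns labelled Negroamaro and Primitivo. In soft berries these medians had been 2.66 FPKM in Sangiovese, 4.49 in Barbera, 4.36 in Negroamaro and 2.48 in Primitivo, so all 5 cultivars had a higher median at harvest as labelled. For 481 of the 500 (96.2%) Refosco had more at harvest than in soft berries, against 42.8% of all tested genes, and in the other 4 cultivars as labelled it was 323 to 424 of the 500. Their choice by the harvest value favours such a count in Refosco. The median difference from the others was 0.04, 0.11 and -0.05 at the 3 earlier stages. For the 388 lower genes the Refosco median went from 12.3 FPKM in soft to 3.38 FPKM in harvested berries, and that of the others at harvest was 10.5 to 15.1 FPKM. These lower genes were partly apart before harvest, as their median difference was -0.64 in soft berries. Of the 388, 112 were lower by at least 1 there, where 6.1% of all tested genes were.

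At harvest 50 genes lay in 9 runs of 3 or more neighbours, 5 runs higher and 4 lower, whereas pea-sized, touching and soft berries had 0 such runs. The number of runs depends on how many genes are called. That was 4.88% of those tested at harvest, against 0.225% in pea-sized, 0.192% in touching and 0.599% in soft berries. A stretch on chromosome field 16 with scaffold field 100 held the 2 longest, 21 entries from VIT_16s0100g00780 to VIT_16s0100g01040 and 6 from VIT_16s0100g01120 to VIT_16s0100g01170. The 21 summed to 84.97 FPKM in pea-sized, 21.5 in touching, 37.5 in soft and 11690 in harvested Refosco berries. At harvest the sum was 260.5 FPKM in Sangiovese, 1088 in Barbera, and 3995 and 443 in the columns labelled Negroamaro and Primitivo. Before harvest Refosco was not above the others, which had 42.5 to 159 FPKM in pea-sized, 25.4 to 89.5 in touching and 9.15 to 196 FPKM in soft berries. The 21 differences at harvest ran from 3.14 to 4.75, with a median of 3.78. The 6 further genes summed to 1363 FPKM in Refosco at harvest against 20.04 to 331.5 FPKM elsewhere. Of the 79 tested genes with this scaffold field, 28 were higher and 1 was lower in Refosco at harvest, against 2.75% and 2.13% of all tested genes.

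A shorter stretch of the same chromosome field, 5 entries from VIT_16s0039g01100 to VIT_16s0039g01170, showed the same order of cultivars. It summed to 5.18 FPKM in soft and 1335 FPKM in harvested Refosco berries, against 66.3 FPKM in Sangiovese, 149 in Barbera, 419 in the column labelled Negroamaro and 69.8 in that labelled Primitivo at harvest. In unplaced sequence 3 genes from VIT_00s0301g00070 to VIT_00s0301g00090 stood at 379 FPKM in harvested Refosco berries and 14.6 to 82.0 FPKM elsewhere. This run had been abundant in young berries of all cultivars, at 115 to 217 FPKM in pea-sized ones, and at 12.4 to 18.9 FPKM in soft ones, Refosco included. The last higher run, from VIT_01s0010g01710 to VIT_01s0010g01730, differed least, with 90.0 FPKM against 33.5 to 55.4 FPKM.

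Of the lower runs at harvest, 2 were those already given for the 4 stages together, from VIT_01s0011g05900 and from VIT_12s0035g00730. The genes from VIT_15s0046g03570 to VIT_15s0046g03590 were below the others throughout, with 348, 352, 102 and 23.4 FPKM in Refosco and 361.5 to 530, 483 to 612, 153 to 237.5 and 68.2 to 130 FPKM in the other cultivars. The genes from VIT_04s0008g06380 to VIT_04s0008g06400 were not: Refosco had the highest sum of pea-sized berries, 77.3 FPKM, and the lowest at harvest, 11.01 FPKM against 20.2 to 69.8 FPKM.

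Whether the Refosco difference changed between stages was tested gene by gene. The F test called 54 genes (0.297% of those tested), and 1730 had an unadjusted p under 0.05. The size of the difference was largest at harvest for 39 of the 54, of which 29 were higher and 10 lower there. Of the genes called at harvest, 31 higher and 11 lower ones passed this test, so for most of the 888 a change of the difference between stages was not shown. The count was 6 without harvest berries, 7 without soft berries, 21 without touching berries, 12 without Primitivo and 20 without Sangiovese. It was 110 without Negroamaro, 154 without both harvest columns labelled Negroamaro and Primitivo, and 245 without all 4 columns doubted.

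Among genes past this test, those furthest above at harvest were VIT_00s0731g00010 and VIT_18s0001g00730. VIT_00s0731g00010 had at most 0.0919 FPKM in Refosco before harvest and 54.3 FPKM at harvest, where the others had 0.0152 to 3.12 FPKM (log2 difference 4.95, SE 0.52, limma adjusted p = 0.000727). VIT_18s0001g00730 had 31.6 FPKM in harvested Refosco berries and at most 0.803 FPKM in each of the other 19 columns (4.78, SE 0.27, adjusted p = 7.06e-06). Both were thus silent or nearly so before harvest in all 5 cultivars. Both averaged under 1 FPKM over the columns of the other cultivars and so passed the filter only through Refosco at harvest. At harvest VIT_00s0731g00010 was also at 3.12 FPKM in the column labelled Negroamaro and at 1.36 FPKM in Barbera.

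Among genes past the F test and called at the stage with at least 10 FPKM, VIT_18s0001g11470 was furthest above in touching Refosco berries. It was second in pea-sized ones, after a gene listed at 0 in every other column. It had 31.8 FPKM in pea-sized and 91.6 FPKM in touching berries, then 0.853 and 0.0472 FPKM in soft and harvested ones. The others had at most 0.365 FPKM in pea-sized and 0.190 to 3.45 FPKM in touching berries. The log2 differences at these stages were 4.88 and 5.26 (SE 0.53, limma adjusted p = 0.0022 and 0.00153), and in soft berries the difference was 0.18 (adjusted p = 0.932). VIT_04s0008g03990 had 30.5, 15.4, 1.30 and 2.43 FPKM in Refosco over the stages, Barbera 0.972 to 3.52 FPKM, and the other cultivars at most 0.111 FPKM. It was called in pea-sized (4.57, SE 0.31, adjusted p = 3.84e-05), touching (3.45, adjusted p = 0.000766) and harvested berries (1.43, adjusted p = 0.0195). In soft berries VIT_05s0094g00770 was at 21.6 FPKM in Refosco against 0.0710 to 0.406 FPKM, and at most 1.99 FPKM in every other column of the table (4.16, SE 0.26, adjusted p = 1.89e-05). Each of these genes averaged under 1 FPKM over the columns of the other cultivars and so passed the filter only through Refosco.

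A few genes past the stage tests owed their place to values listed at 0. VIT_13s0064g01670 was at 40.3 FPKM in pea-sized Refosco berries, and VIT_02s0025g02380 at 76.0 FPKM in soft ones. Each was listed at 0 in the other 19 columns, so it passed the filter only through that value. The limma adjusted p was 1.06e-07 and 1.73e-08 at those stages. With no spread in their other columns, these p-values take their spread from other genes alone and measure no variation of these 2. No fold is given against 0. Conversely VIT_19s0014g02740 and VIT_06s0004g03240 were listed at 0 in touching Refosco berries (adjusted p = 2.53e-08 and 9.68e-12). VIT_19s0014g02740 had 62990 to 86660 FPKM in touching berries of the others, and in Refosco 15410 FPKM in pea-sized and 174100 FPKM in soft berries. VIT_06s0004g03240 had 5073 to 5572 FPKM in touching berries of the others, and 4054 and 1114 FPKM in pea-sized and soft Refosco berries, within or near the range of the others there. An exact 0 between such values can be a failed estimate, which was not tested.

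In 3 measures of whole columns Refosco was not shown to differ from the others on average, but its place among them changed from stage to stage. The columns of each cultivar were placed on a scale of ripening drawn from the remaining 4, with 0 at their mean in pea-sized berries and 1 at their mean in harvested ones, so each cultivar has a scale of its own. On these scales the Refosco value was lowest of the 5 in pea-sized berries (-0.0172 against 0.0209 to 0.0305) and touching berries (0.101 against 0.163 to 0.236). It was within the range in soft berries (0.743 against 0.645 to 0.776) and highest at harvest (1.05 against 0.894 to 1.00). Averaged over the stages the difference was 0.00190 (exact permutation test of the Refosco label within stages, two-sided, p = 0.954). The number of genes at 1 FPKM or more differed by -100.2 on average (exact permutation p = 0.394). It was above the others in pea-sized berries (18076 against 17801 to 18011), below them at harvest (15967 against 16013 to 16434) and within their range between, at 17295 and 16145. The 10 most abundant genes took more of the total than in any other cultivar in pea-sized (7.24% against 5.33% to 6.72%) and soft berries (29.1% against 22.4% to 28.8%), and at harvest 18.9% against 16.2% to 22.4%. In touching berries they took 8.36% against 13.1% to 15.8%, in the column where VIT_19s0014g02740 is listed at 0. Differences of opposite sign thus enter the average of -0.275 percentage points (exact permutation p = 0.832). The 625 assignments of this exact permutation test allow p = 0.0016 at the smallest, and the Benjamini-Hochberg adjusted p over the 3 measures was 0.954 for each.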

How the data were processed

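Berry pericarp of 5 cultivars at 4 stages was sequenced in 60 libraries, 3 a group, prepared without strand information per the labels' protocols, so antisense reads cannot be told apart from those of the gene they overlap. TopHat2 2.0.6 and Cufflinks 2.0.2 are named in the submitters' processing notes, with no role. A genome build was not given in the sources used here. The table deposited by the authors holds FPKM values, and its 20 columns are named by cultivar and stage only, per the file headers, so they were taken as the authors' means. The number of columns belonging to no sample was 0. Of 29287 rows, 608 join several locus tags and 2828 are at 0 throughout.

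Tests were run in R 4.3.3 with limma 3.58.1 on log2(FPKM + 1), over the 18207 genes that averaged 1 FPKM or more in the 20 columns. Since this mean includes the Refosco columns, genes nearly silent in the other cultivars entered only through Refosco. The highest mean left out was 0.999 FPKM, and of the 100 genes nearest below and above the limit 3 and 0 had a log2 difference of at least 1. The additive model held stage and cultivar (12 residual degrees of freedom) with a trended prior. A further model with Refosco-by-stage terms (9 residual degrees of freedom) gave the values by stage and the F test over the stage terms. Adjustment was by Benjamini-Hochberg over all genes tested, two-sided, at 0.05, with a log2 difference of at least 1. Both fits were tested on simulated data. Column measures used exact permutation of the Refosco label within stages, and figures used Python 3.11.15 with numpy 2.4.6, pandas 2.3.3 and matplotlib 3.10.9.

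Gene lists by function and tissue markers could not be formed, since none of the locus tags matched the 29591 entries of the reference table. The named genes are the 2 highest and 2 lowest over the stages, and at each stage among genes past the F test, with at least 10 FPKM in the higher group and, over the stages, on the same side at all 4. To these were added runs of at least 3 neighbours, genes on or off in Refosco alone, and the most abundant called entry; the last was chosen after its values were seen. The comparison, rules and lists were chosen with earlier results of these data known. Alternatives covered pseudocounts, filters, scalings, robust fitting, each stage and cultivar left out, and the exchange or omission of the harvest columns labelled Negroamaro and Primitivo. Leaving out pea-sized Barbera, Refosco touching, or both with those harvest columns, was chosen after seeing the data, as were the comparisons of pea-sized Barbera with Refosco and of levels of the genes called at harvest.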

Additional observations from a re-analysis of the deposited data

Results flagged for a closer look

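Within each stage the 5 cultivars were searched for a column far from the others, in 16 groups of column measures and label matches. Chance picks about 1 in 20 such groups, and 3 were picked. Refosco had the lowest position on the scale of ripening drawn for each cultivar from the other 4, among pea-sized berries, at -0.0172 against 0.0209 to 0.0305 in the others. Pea-sized Barbera had an r of 0.13 with the other Barbera columns, the lowest own match of pea-sized berries. Negroamaro had 17551 genes at 1 FPKM or more in touching berries, above the other 4 cultivars.

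For 11 genes named in the text the Refosco difference itself changed between stages (F test over the Refosco-by-stage terms in limma, adjusted over all genes tested). The adjusted p was 1.6e-06 for VIT_13s0064g01670 and 4.89e-07 for VIT_02s0025g02380, which were listed at 0 in all columns but a single Refosco one. For these the spread comes from other genes alone, so the p measures no variation of their own. It was 4.89e-07 for VIT_19s0014g02740 and 6.53e-10 for VIT_06s0004g03240, which were listed at 0 in touching Refosco berries. Of the genes apart in young berries, it was 0.00941 for VIT_18s0001g11470 and 0.00895 for VIT_04s0008g03990. For VIT_05s0094g00770, apart in soft berries, it was 0.00151. For the genes silent until harvest it was 0.0251 for VIT_00s0731g00010 and 0.000339 for VIT_18s0001g00730. Of the genes lower at every stage it was 0.0387 for VIT_11s0052g01770 and 0.0474 for VIT_01s0026g00430.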

How the results depend on the processing

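No paired analysis was possible because the columns are means that carry no replicate number. Across all alternatives 455 values of named genes kept their direction and side of the threshold, 11 kept the direction and lost the call, and 0 changed direction. The tally leaves out genes that an alternative did not test. At a mean of at least 5 FPKM these were VIT_13s0064g01670, VIT_02s0025g02380, VIT_04s0008g03990, VIT_05s0094g00770, VIT_00s0731g00010 and VIT_18s0001g00730. Of the summary values 279 stayed near the reported ones and 86 moved, and the cause of the moves was not tested except where fewer genes or columns entered.

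With a pseudocount of 0.1 FPKM 589 genes were apart over the stages (362 lower), 23 had a differing course and 23 were apart in pea-sized berries. The run medians were then -3.16 (from VIT_00s0540g00010), -4.65 (VIT_01s0011g05900), -3.08 (VIT_12s0034g02310), -3.99 (VIT_18s0041g01650) and 6.70 (VIT_19s0014g05330). With 5 FPKM 133 genes were apart (66 higher, 67 lower), 153 differed in course, and 52 were apart in soft and 587 in harvested berries, with medians of -0.64, -1.01, -0.42, -0.99 and 2.59 for the same runs and 1.36 from VIT_13s0067g01080. Without a filter 683 genes differed in course, and 184 were apart in pea-sized and 101 in touching berries. At a mean of at least 5 FPKM 227 were apart (84 higher, 143 lower), 13 differed in course, and 10 and 15 were apart in pea-sized and touching berries. Run medians were then available only from VIT_01s0011g05900 and VIT_12s0035g00730.

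Without a size threshold 1531 genes (8.41%) were apart, 488 higher and 1043 lower, so the higher share was 31.9% against 42.7%. With the other cultivars at 1 level it was 209 (89 higher, 120 lower). Without both harvest columns labelled Negroamaro and Primitivo 154 genes differed in course, and 71, 68 and 262 were apart in pea-sized, touching and soft berries. Exchanging them gave 93, 84 and 215, and leaving out pea-sized Barbera 88, 94 and 188. Without the Refosco touching column 106 genes were higher over the stages. Without all 4 columns 245 differed in course, and 189 were apart in pea-sized, 485 in soft and 1528 in harvested berries.

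Leaving out a stage or cultivar in turn gave 138 to 423 genes apart over the stages (58 to 197 higher, 74 to 241 lower) and 6 to 110 with a differing course. By stage it gave 15 to 78 in pea-sized, 19 to 78 in touching, 23 to 250 in soft and 368 to 1201 in harvested berries. Run medians spanned 1.41 to 2.36 (from VIT_00s0160g00020), -1.89 to -1.36 (VIT_00s0540g00010), -2.83 to -1.78 (VIT_01s0011g05900), -2.58 to -1.67 (VIT_18s0041g01650), -1.25 to -1.01 (VIT_12s0034g02310), -2.92 to -1.88 (VIT_12s0035g00730), 2.15 to 2.51 (VIT_13s0067g01080) and 4.00 to 4.65 (VIT_19s0014g05330). Scalings and robust fitting gave 357 to 380 genes apart. Read depth and replicate spread are unknown, which limits low genes most.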
